A study of Mus musculus with 18 samples.

Results

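The comparison described here sets 3 libraries of E0771 cells, a mouse mammary tumour line, against 3 libraries of B16F10 cells, a mouse melanoma line. These are the empty vector controls, 6 of the 18 libraries of the study, chosen by their labels. RNA was sequenced from both lines, which are of C57BL6 strain, after they had been given an empty pRetrox vector, MRTFA or MRTFB, with 3 replicates in each of 6 groups. All groups, the controls included, received doxycycline at 500 ng/mL for 48 h and were grown in RPMI with fetal bovine serum. The comparison asks how the 2 host lines differ when neither carries a transgene. Each tumour type is represented by 1 line, so a property of the line and a property of the tumour type cannot be told apart, and in bulk RNA fewer expressing cells and less RNA per cell cannot be told apart either. The labels do not say that replicates were separate cultures, so p-values measure only the spread between these libraries.

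Melanoma cells descend from the neural crest lineage of melanocytes, in which the transcription factors SOX10 and MITF maintain the enzymes and structural proteins of the melanosome, the organelle that makes and stores melanin. Mammary carcinoma cells descend from a glandular epithelium, which is held together by keratin filaments, desmosomes and E-cadherin junctions, and which can lose these features in an epithelial to mesenchymal transition. Both lines are widely used as transplantable tumours in C57BL6 mice, where antigen presentation by MHC class I and the interferon response are among the properties that immune cells meet.

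Promoter sequences of pigment genes are given from the reference genome. They describe the genes and were not compared between the lines. The file of RefSeq promoter sequences (GRCm38.p6) matched 10 of the 15 melanosome genes listed here. In the 250 bases before the annotated start of each gene, the motif TCATGTG, the core of the M-box to which MITF binds, was searched on both strands. It was present in 5 of those 10 genes (Tyr, Tyrp1, Dct, Slc24a5 and Trpm1) and in 3.72% of all 27025 genes with a promoter of that length in the file (1006), or 3.25% of all 32851 promoters (1068). The 3 tyrosinase family promoters are shown 5′ to 3′ on the strand of the gene, with the motif or its reverse complement in capitals.
Tyr (chr7:87493513-87493762, minus strand): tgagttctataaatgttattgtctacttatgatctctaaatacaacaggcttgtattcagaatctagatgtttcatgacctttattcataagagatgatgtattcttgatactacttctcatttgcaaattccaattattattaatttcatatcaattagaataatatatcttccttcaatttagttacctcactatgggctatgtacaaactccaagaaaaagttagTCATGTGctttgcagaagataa
Tyrp1 (chr4:80833963-80834212, plus strand): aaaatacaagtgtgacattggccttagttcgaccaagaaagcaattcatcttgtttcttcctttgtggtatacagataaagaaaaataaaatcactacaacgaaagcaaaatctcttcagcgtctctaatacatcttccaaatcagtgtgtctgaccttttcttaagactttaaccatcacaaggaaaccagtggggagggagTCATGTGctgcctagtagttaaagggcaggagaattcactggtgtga
Dct (chr14:118052247-118052496, minus strand): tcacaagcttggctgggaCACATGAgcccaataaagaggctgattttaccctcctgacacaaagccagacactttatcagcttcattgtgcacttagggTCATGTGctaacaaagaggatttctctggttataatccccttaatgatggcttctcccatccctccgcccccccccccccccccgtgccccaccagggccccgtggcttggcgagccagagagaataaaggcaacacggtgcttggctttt
The match lay 22 to 16 bases before the start in Tyr and 47 to 41 bases before it in Tyrp1. Dct held 2 matches, one at 151 to 145 bases and one, in reverse, at 232 to 226 bases before the start. Positions count from the RefSeq start. For Tyrp1 that start lies inside the GENCODE gene whose coordinates are given below, and so does the match. A match is a description of these letters and does not show that MITF was bound.

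Across the genome the lines were far apart. Of 13658 genes tested, 9600 (70.3%) were called, meaning that their adjusted p was under 0.05 in limma's test. Of all genes tested, 33.5% (4570) were higher in E0771 and 36.8% (5030) were higher in B16F10. Under a stricter rule that also asks for a difference of at least 4-fold, 7.76% (1060) were higher in E0771 and 13.9% (1894) were higher in B16F10. Values did not overlap between the lines, with the E0771 libraries above, for 35.7% of genes tested, and with the B16F10 libraries above for 38.8%. All values below are scaled reads, that is reads divided by the size factor of the library, in replicates 1, 2 and 3. Where a line had 1 to 3 reads of a gene in all, the ratio of reads scaled by library is given with its counting interval in place of a log2 difference, and where it had none, a lower bound. A log2 difference is the fitted difference of log2(scaled reads + 1), E0771 minus B16F10, so that a negative value is higher in B16F10. The scale understates differences of genes with few reads. The median log2 difference of all genes tested was −0.04, and the median size of the difference, whatever its sign, was 0.70. Recovered reads per control library ranged from 31036305 to 33773384. The first principal component separated the lines and held 96.4% of the variance. The second held 1.27% and set replicate 3 of both lines apart from replicates 1 and 2. Without replicate 3 of both lines, 8479 genes were called.

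**Figure D1:**
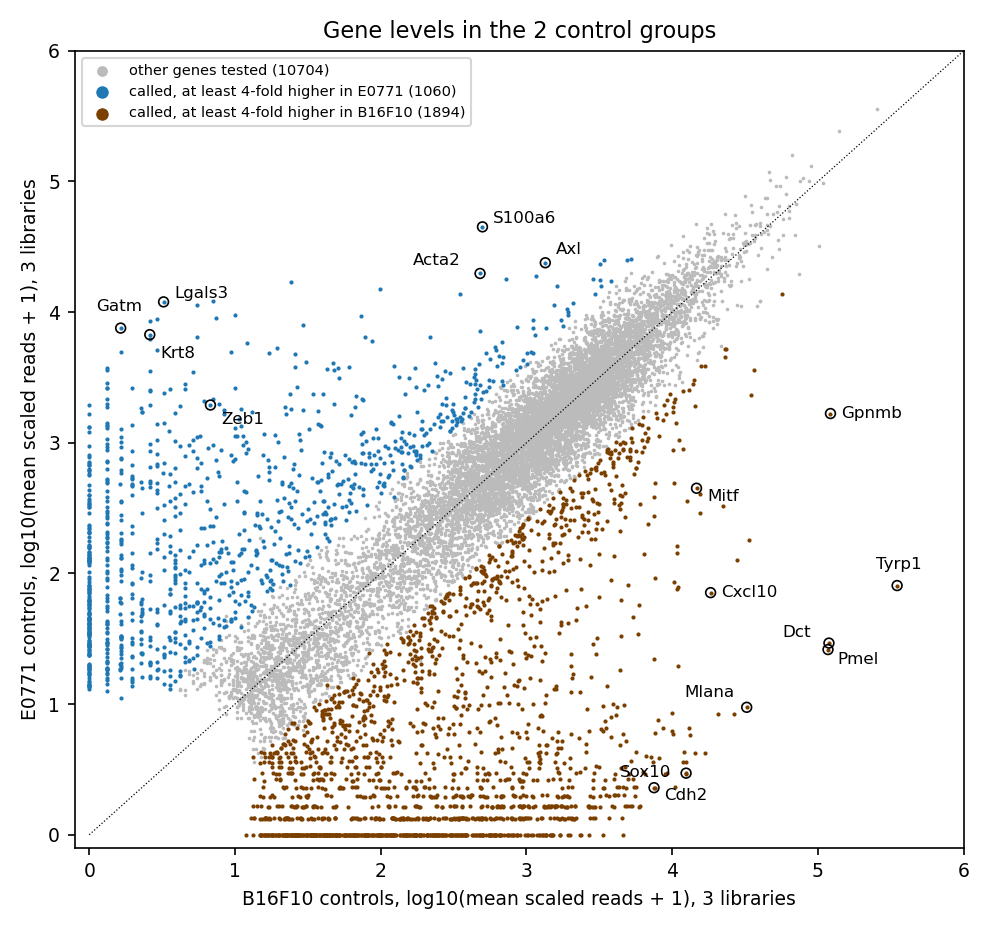
Mean scaled reads per gene in the 3 B16F10 controls (horizontal) and the 3 E0771 controls (vertical), each as log10(value + 1), for the 13658 genes tested, with the dotted line at equal levels. Blue marks the 1060 genes called at least 4-fold higher in E0771 and brown the 1894 called at least 4-fold higher in B16F10, and named genes are circled. Tyrp1 lies farthest to the right among the brown points.

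The 4 marker genes followed the labels. Tyrp1 (ENSMUSG00000005994.14, chromosome 4, 80834123 to 80851719, GRCm38), a melanosome enzyme of the tyrosinase family, had 306209, 326992 and 413802 in B16F10 and 72.5, 76.1 and 90.6 in E0771 (log2 difference −12.07, SE 0.13, adjusted p = 8.79e-10). Pmel (ENSMUSG00000025359.9, chromosome 10, 128704195 to 128720238), whose protein forms the fibrils on which melanin is laid down, had 115869, 116962 and 123821 in B16F10 and 24.2, 28.04 and 32.7 in E0771 (log2 difference −11.996, SE 0.12, adjusted p = 6.03e-10). Sox10 (ENSMUSG00000033006.9, chromosome 15, 79154908 to 79165240) had 13811, 10854 and 12664 in B16F10 and 2.01, 2.003 and 1.87 in E0771 (log2 difference −12.03, SE 0.17, adjusted p = 3.45e-09). For these 3 genes the groups did not overlap, and the E0771 libraries held under 100 scaled reads. Krt8 (ENSMUSG00000049382.9, chromosome 15, 101996698 to 102004482), the keratin of simple epithelia, had 5689, 7794 and 6676 in E0771 and 1.92, 0.974 and 1.91 in B16F10 (log2 difference 11.35, SE 0.23, adjusted p = 8.96e-09). In RPKM, reads scaled by library size and by exon length, Tyrp1 had the highest level of any gene in B16F10, at 4039, and Pmel was the fourth highest, at 1699.7, while in E0771 their levels were 0.889 and 0.389.

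The pigment genes were on in B16F10, and most were at or near 0 in E0771. All 15 melanosome genes in the list were tested and all 15 were called higher in B16F10, 14 of them by at least 4-fold, with a median log2 difference of −10.97. Over all genes tested these shares were 36.8% and 13.9%. Members near 0 in E0771 passed the filter on low values only through B16F10, so the count describes which genes were on. Tyr, tyrosinase, the rate-limiting enzyme of melanin synthesis, had 7183, 7469 and 12991 in B16F10 and 3.02, 2.003 and 0.934 in E0771 (log2 difference −11.60, SE 0.33, adjusted p = 2.14e-08). Dct, dopachrome tautomerase, had 102920.0, 100413 and 148067 in B16F10 and 26.2, 24.03 and 25.2 in E0771 (log2 difference −12.11, SE 0.15, adjusted p = 1.56e-09). The transporter Slc45a2 had 14422, 17689.9 and 18048 in B16F10 and 4.03, 1.001 and 4.67 in E0771, and the ion exchanger Slc24a5 had 9836, 9192 and 11450.1 in B16F10 and 3.02, 5.01 and 6.54 in E0771. Neither overlapped between the lines, and their log2 differences were −12.08 and −10.80 (adjusted p = 2.82e-08 and 1.04e-08). Gpr143, a receptor of the melanosome membrane, had 1014, 1000.03 and 986 in B16F10 and 0, 0 and 0 in E0771. With no E0771 read, it was at least 1061-fold higher in B16F10, against a limit of 3 reads over the group.

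Genes of melanosome sorting and transport ranged from near 0 to abundant in E0771. Rab38 and Rab32, which sort enzymes to the melanosome, differed by −11.76 and −10.97 on the log2 scale (adjusted p = 4.24e-09 and 1.12e-08). Rab27a, which tethers the melanosome to the actin motor, had 5314, 5338 and 7223 in B16F10 and 52.4, 43.1 and 72.9 in E0771, and its adaptor Mlph had 19875, 21803 and 24956 in B16F10 and 309, 433 and 237 in E0771. Both were called (−6.72 and −6.12, adjusted p = 3.31e-08 and 3.91e-08) but kept between 43.1 and 433 scaled reads in every E0771 library. The motor itself, Myo5a, which also carries cargo in other cells, had 18196, 19364 and 23692 in B16F10 and 8090.5, 9228 and 8949.9 in E0771, the smallest difference of the 15 genes (log2 difference −1.21, SE 0.11, adjusted p = 1.97e-05). Oca2 and Trpm1, at the low end, still did not overlap, with 155, 178 and 182 in B16F10 and 0, 0 and 0.934 in E0771 for Oca2 and 468, 470.3 and 953 in B16F10 and 0, 0 and 1.87 in E0771 for Trpm1.

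The transcription factors and receptors above the pigment genes followed in part. Of the 14 tested members of the melanocyte regulator list, 12 were called higher in B16F10, 11 of them by at least 4-fold, and 1 was called higher in E0771, with a median of −4.65. For all genes tested, 36.8% were called higher in B16F10, 13.9% by at least 4-fold, and 33.5% were called higher in E0771. Members such as Pax3 passed the filter on low values only through B16F10 and had to differ. Mitf had 15877, 11745 and 16398 in B16F10 and 419.9, 449 and 475 in E0771 (log2 difference −5.02, SE 0.13, adjusted p = 1.68e-08), so that E0771 kept at least 419.9 scaled reads of this gene in each library. Pax3, which acts with SOX10 on Mitf, had 5874, 6113 and 6969 in B16F10 and 5.03, 1.001 and 0 in E0771 (log2 difference −11.42, SE 0.56, adjusted p = 3.4e-07). Erbb3, a neuregulin receptor of the neural crest, had 7604, 8011 and 6701 in B16F10 and 296, 422 and 443 in E0771 (log2 difference −4.28, SE 0.16, adjusted p = 7.09e-08). Gpnmb, a melanosome glycoprotein also made by macrophages and other cells, had 108410.0, 115293 and 141630.0 in B16F10 and 1209, 814 and 2993 in E0771 (log2 difference −6.40, SE 0.40, adjusted p = 1.61e-06), and its highest E0771 value was in replicate 3. Sox9, a related factor of neural crest and of many epithelia, was the member that was higher in E0771, with 1364, 1119 and 1049 in E0771 and 165, 149.96 and 154 in B16F10 (log2 difference 2.90, SE 0.14, adjusted p = 3.89e-07). Met, the hepatocyte growth factor receptor, had 5478, 4934 and 9164 in B16F10 and 7411, 6849.7 and 7903 in E0771 (log2 difference 0.23, 95% interval −0.25 to 0.71, adjusted p = 0.345). Without B16F10 replicate 3, its highest library there, Met was called higher in E0771 (0.50, adjusted p = 0.00374).

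**Figure D2:**
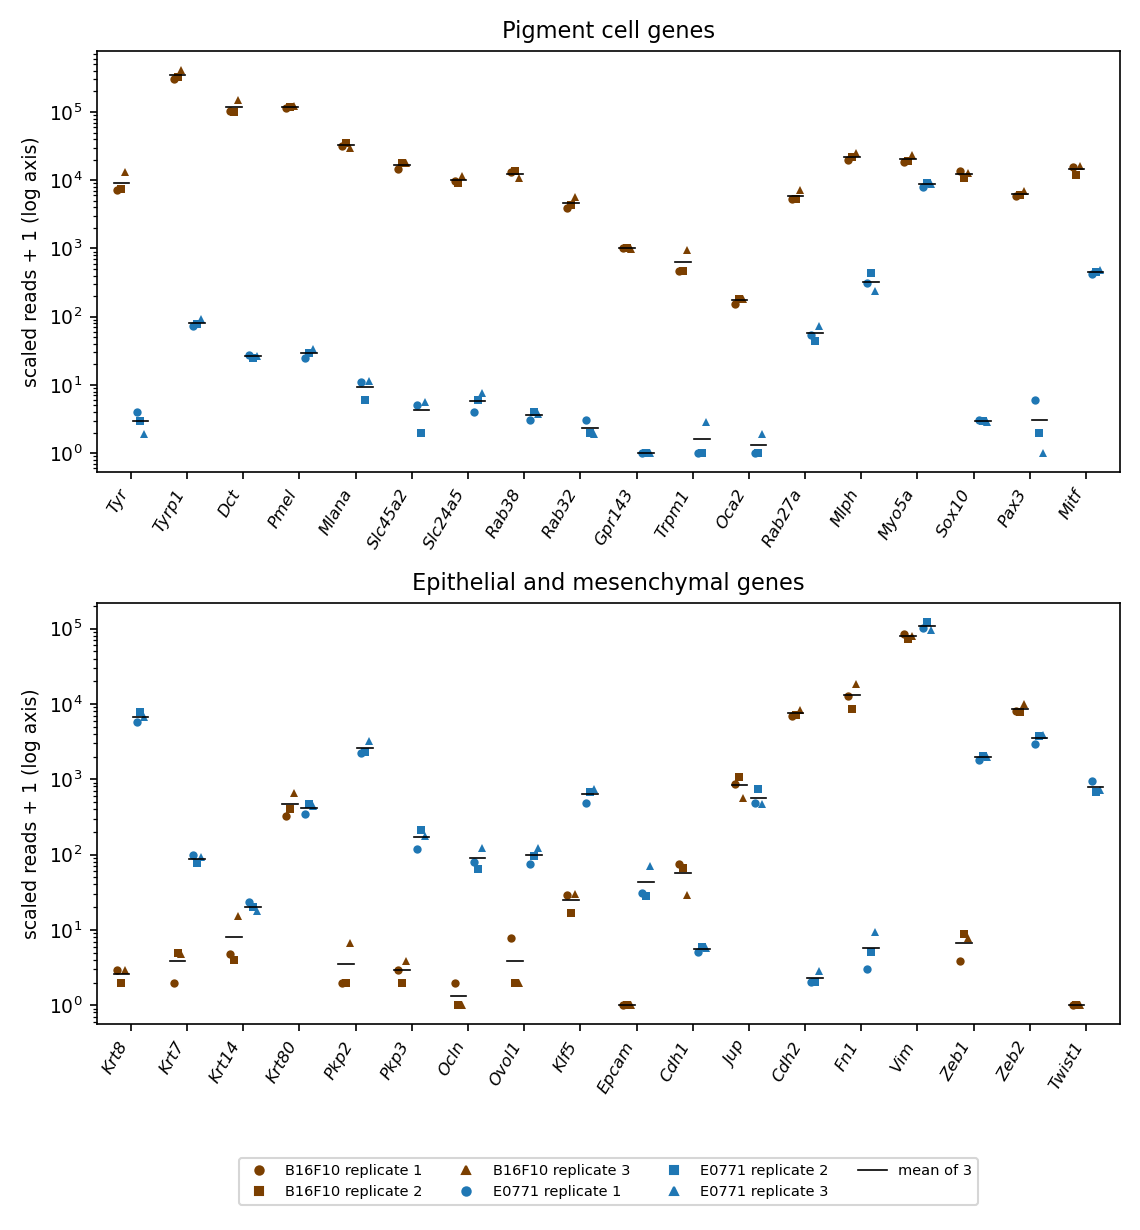
Scaled reads + 1 on a log axis in each control library (symbols, by replicate) with the mean of 3 (black line), brown for B16F10 and blue for E0771. The upper panel holds 15 melanosome genes with Sox10, Pax3 and Mitf, of which Myo5a is the closest between lines, and the lower panel holds epithelial and mesenchymal genes, in which Krt8 and Twist1 are high in E0771 and Cdh2 and Fn1 are high in B16F10.

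Genes that were high in 1 line still had some reads in the other. Among 15 pigment cell genes with at least 20000 B16F10 reads in all, 8 had an E0771 total of 0.0155% to 0.0258% of the B16F10 total: Tyr, Tyrp1, Dct, Pmel, Mlana, Slc45a2, Rab38 and Sox10. The other 7 were higher in that ratio, at 0.0474% for Slc24a5, 1.38% for Gpnmb, 1.44% for Mlph, 3.001% for Mitf, 5.14% for Erbb3, 42.2% for Myo5a and 111% for Met. The 8 are grouped by these values, which is a description. Tyrp1, for example, had 1087662 reads in B16F10 and 245 in E0771. In the other direction, the 12 genes of lowest ratio among those with at least 20000 E0771 reads ran from 0.00863% for Gatm to 0.668% for Dusp9. Among them Krt8 had 5 reads in B16F10, 0.0243% of 20578 in E0771, and Lgals3 had 7, 0.0191% of 36562. Ly6e was at 0.0403%, and Flnc was at 0.139%. Whether these few reads came from cells of the line in which they were counted was not tested.

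Beyond the pigment genes, the 12 largest log2 differences towards B16F10 included Hapln1, Plagl1, Fndc3c1, Scrn1 and Bace2. Hapln1, which links hyaluronan to proteoglycans, had 11766, 13062 and 6318 in B16F10 and 2.01, 2.003 and 0 in E0771 (log2 difference −12.21, SE 0.47, adjusted p = 8.1e-08). Plagl1, an imprinted zinc finger gene, had 11905, 11964 and 13279.9 in B16F10 and 1.01, 1.001 and 3.74 in E0771 (log2 difference −12.18, SE 0.33, adjusted p = 1.76e-08). Neither gene overlapped between the lines. Among the genes with a difference of at least 4 on the log2 scale, those with the most reads in B16F10 included the myelin gene Mbp (44394, 40480.3 and 16472 in B16F10 and 175, 146 and 212 in E0771), the secreted carbonic anhydrase Car6 (19521, 27211 and 37049.7 in B16F10 and 109, 49.1 and 218 in E0771) and the synaptotagmin Syt4 (20461, 21277 and 19958 in B16F10 and 7.05, 6.01 and 9.34 in E0771). Their log2 differences were −7.45, −7.99 and −11.26 (adjusted p = 2.45e-07, 1.12e-06 and 3.52e-09). The B16F10 values of Mbp and Car6 spread by more than those of Syt4.

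Towards E0771 the 12 largest were Gatm, Lgals3, Emilin2, F2r, Fbln2, Anxa3, Col6a2, Krt8, Wfdc2, Ly6e, Pxdn and Tex11. Gatm, the first enzyme of creatine synthesis, had 7508, 6528 and 8588 in E0771 and 0, 0.974 and 0.954 in B16F10 (a ratio of 11331 between the lines, 95% counting interval 3136 to 93572, adjusted p = 1.36e-08). Lgals3, a galectin secreted by many carcinomas and macrophages, had 12022, 13136 and 10751 in E0771 and 0.962, 0.974 and 4.77 in B16F10 (log2 difference 12.05, SE 0.40, adjusted p = 4.11e-08). F2r, the thrombin receptor, had 3751, 3897 and 3619 in E0771 and 0, 0.974 and 0 in B16F10 (a ratio of 11239 between the lines, 95% counting interval 2017 to 443967, adjusted p = 1.61e-08). For these 3 genes the B16F10 libraries held at most 4.77 scaled reads. The E0771 genes with the most reads at a difference of at least 4 were S100a6, a calcium-binding protein (46245, 42753 and 45744 in E0771 and 414, 259.99 and 819.9 in B16F10), the receptor kinase Axl (21382, 23211 and 26973 in E0771 and 1249.6, 781 and 2004 in B16F10), smooth muscle actin Acta2 (23963, 16568 and 18722 in E0771 and 463, 176 and 798 in B16F10), the scaffold Ahnak (20637, 17774 and 17913 in E0771 and 901, 443 and 2116 in B16F10) and the lactate exporter Slc16a3 (14039, 22906 and 16538 in E0771 and 782, 918 and 475 in B16F10). Their log2 differences ran from 4.25 for Axl to 6.65 for S100a6, and no B16F10 value reached an E0771 value.

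E0771 carried a narrow set of epithelial genes. Of 24 genes of epithelial junctions and their regulators in the list, 14 were in the table and 10 were tested. Of these, 8 were called higher in E0771, all by at least 4-fold, and 1 was called higher in B16F10, with a median of 4.81. For all genes tested, 33.5% were called higher in E0771, 7.76% by at least 4-fold, and 36.8% were called higher in B16F10. A member that passed the filter on low values only through 1 line had to differ, so the count describes which genes were on and does not measure how often members differ. Pkp2, a desmosomal plakophilin, had 2213, 2282 and 3249.9 in E0771 and 0.962, 0.974 and 5.73 in B16F10 (log2 difference 9.74, SE 0.47, adjusted p = 3.16e-07). Klf5, a transcription factor of proliferating epithelia, had 477, 671 and 740.1 in E0771 and 27.9, 15.6 and 28.6 in B16F10 (log2 difference 4.68, SE 0.29, adjusted p = 1.47e-06). The desmosomal gene Pkp3 and the factor Ovol1 were also called, with log2 differences of 5.87 and 4.95 (adjusted p = 1.11e-06 and 4.78e-05), as was the tight junction gene Ocln (a ratio of 266 between the lines, 95% counting interval 47.4 to 10548, adjusted p = 1.42e-06), all from E0771 means under 200 scaled reads.

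E-cadherin did not follow them. Cdh1 had 74.1, 66.2 and 27.7 in B16F10 and 4.03, 5.01 and 4.67 in E0771, which is low in both lines and lower in E0771 (log2 difference −3.24, SE 0.38, adjusted p = 9.03e-05). Epcam, the epithelial cell adhesion molecule, was singled out after its values were seen and had 30.2, 27.04 and 69.1 in E0771 and 0, 0 and 0 in B16F10, at least 43-fold higher in E0771. Jup, plakoglobin, a component of both desmosomes and cadherin junctions, had 869, 1075 and 567 in B16F10 and 478, 751 and 470.01 in E0771 (log2 difference −0.55, 95% interval −1.16 to 0.06, adjusted p = 0.094). Jup was called higher in B16F10 without B16F10 replicate 3 (log2 difference −0.80, adjusted p = 0.0233) or without E0771 replicate 2 (−0.77, adjusted p = 0.0325), which brings the number of list members higher in B16F10 to 2.

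Keratins other than Krt8 were sparse. Of 12 keratins in the list, 8 were in the table and 4 were tested, of which 3 were called higher in E0771 and none in B16F10. The shares of all genes tested were 33.5% and 36.8%. Krt7, which marks glandular epithelia, had 96.7, 75.1 and 90.6 in E0771 and 0.962, 3.89 and 3.82 in B16F10 (log2 difference 4.62, SE 0.39, adjusted p = 1e-05). Krt14, of basal and myoepithelial cells, had 22.2, 19.03 and 16.8 in E0771 and 3.85, 2.92 and 14.3 in B16F10 (log2 difference 1.61, SE 0.49, adjusted p = 0.0173), and its call was lost without B16F10 replicate 1 or 2 or E0771 replicate 1 (adjusted p = 0.0693, 0.0623 and 0.057). Krt5, Krt17, Krt19 and Krt20 had at most 1.95 scaled reads in any control library, so the basal and luminal keratins Krt5 and Krt19, commonly used to type mammary cells, were at or near 0 in E0771.

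Several genes that define mammary epithelium were low in E0771. Of 16 in the list, 11 were in the table and 5 were tested, with 2 called higher in each line and a median of −0.61. For all genes tested, 33.5% were called higher in E0771 and 36.8% in B16F10. Areg, amphiregulin, an EGF receptor ligand of the mammary ducts, had 132, 148 and 153 in E0771 and 0, 0 and 0 in B16F10, and with no B16F10 read was at least 144-fold higher in E0771. Erbb2, the HER2 receptor, had 1281, 1528 and 1324 in E0771 and 1161, 1008 and 925 in B16F10 (log2 difference 0.42, SE 0.12, adjusted p = 0.0132). Esr1, the oestrogen receptor, was lower in E0771, with 9.06, 6.01 and 14.95 in E0771 and 35.6, 21.4 and 21.95 in B16F10 (log2 difference −1.36, SE 0.37, adjusted p = 0.01), and Elf5, a factor of the milk-producing lineage, had 0, 0 and 0 in E0771 and 13.5, 22.4 and 17.2 in B16F10 and was at least 19-fold higher in B16F10. Foxa1, which acts with the oestrogen receptor, had 55.4, 43.1 and 71.95 in E0771 and 105, 104 and 57.3 in B16F10 (adjusted p = 0.113), and it was called without B16F10 replicate 3 (log2 difference −0.90, adjusted p = 0.0273). Gata3, a factor of luminal mammary cells that is named here outside the naming rule, did not pass the filter on low values. It had no read in E0771 and 10.6 ± 2.84 (SD, n = 3) in B16F10. Of the named genes that mark a mammary epithelial cell, other than Gata3, E0771 therefore held Krt8, Krt7, Areg, Erbb2 and Foxa1. Erbb2 and Foxa1 do not set E0771 apart, since every B16F10 library held at least 925 scaled reads of Erbb2 and 57.3 of Foxa1. The E0771 means of Krt5, Krt19, Esr1 and Elf5 were about 10 scaled reads or fewer. Without the filter on low values, 10 mammary genes were tested, 4 of them called higher in E0771 and 3 in B16F10. The members called higher in E0771 only under that setting are not named in this paragraph.

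Both lines expressed mesenchymal genes, but not the same ones. Of 19 tested, 9 were called higher in E0771, 8 of them by at least 4-fold, and 8 were called higher in B16F10, 4 of them by at least 4-fold. The median difference was 0.02. For all genes tested the shares were 33.5% and 36.8%, and 7.76% and 13.9% at 4-fold. Members such as Cdh2 and Fn1 passed the filter on low values only through 1 line and had to differ. Vim, vimentin, was high in both, with 84941, 73154 and 79676 in B16F10 and 102473, 122243 and 96466 in E0771 (log2 difference 0.43, SE 0.13, adjusted p = 0.0161), and its call was lost without replicate 2 of either line (adjusted p = 0.0641 and 0.0525). Zeb1 and Zeb2, paired repressors of E-cadherin, pointed opposite ways. Zeb1 had 1824, 2023 and 1985 in E0771 and 2.89, 7.79 and 6.68 in B16F10 (log2 difference 8.25, SE 0.31, adjusted p = 7.8e-08) and Zeb2 had 2916, 3686 and 3819 in E0771 and 8130.4, 7842 and 9869 in B16F10 (log2 difference −1.31, SE 0.13, adjusted p = 2.89e-05). Twist1 and Snai1, further repressors of the epithelial state that were singled out after their values were seen, had 936, 683 and 728 in E0771 and 0, 0 and 0 in B16F10 for Twist1 and 352, 594 and 449 in E0771 and 0, 2.92 and 0 in B16F10 for Snai1. Twist1 was at least 780-fold higher in E0771.

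Among mesenchymal genes called higher in B16F10, Cdh2, N-cadherin, had 6968, 7196 and 8334 in B16F10 and 1.01, 1.001 and 1.87 in E0771 (log2 difference −11.69, SE 0.22, adjusted p = 8.42e-09), and Fn1, fibronectin, had 12832, 8459.8 and 18167 in B16F10 and 2.01, 4.01 and 8.41 in E0771 (log2 difference −11.23, SE 0.42, adjusted p = 7.72e-08). In every E0771 control library, the genes of E-cadherin, N-cadherin and fibronectin each had under 10 scaled reads. Cd44, the hyaluronan receptor, had 14732, 14498 and 19093 in B16F10 and 11302, 10802 and 13693 in E0771 (log2 difference −0.43, SE 0.14, adjusted p = 0.0201), and the membrane protease Mmp14 had 7322, 6838 and 6935 in B16F10 and 5207, 6269 and 6104 in E0771 (log2 difference −0.27, SE 0.09, adjusted p = 0.0284). The calls of Cd44 and Mmp14 were each lost without B16F10 replicate 3 or E0771 replicate 1, that of Cd44 also without E0771 replicate 2, and that of Mmp14 also without B16F10 replicate 1 or 2 (adjusted p of 0.0608 to 0.0707 for Cd44 and 0.055 to 0.098 for Mmp14). Tgfb1, the growth factor, was higher in E0771, with 1115, 1275 and 1210.1 in E0771 and 73.1, 55.5 and 93.5 in B16F10 (log2 difference 4.03, SE 0.20, adjusted p = 4.19e-07), as were the metastasis-associated calcium-binding gene S100a4 (7.02) and the gelatinase Mmp2 (2.75).

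Matrix genes divided between the lines. Of 34 tested, 18 were called higher in E0771, 17 of them by at least 4-fold, and 10 were called higher in B16F10, 9 of them by at least 4-fold. The median was 2.15. For all genes tested the shares were 33.5% and 36.8%, and 7.76% and 13.9% at 4-fold. Members such as Fbln1 and Fbln2 passed the filter on low values only through 1 line and had to differ. The basement membrane collagens Col4a1 and Col4a2 had 19345, 30136 and 21096 in E0771 and 3235, 2922 and 3458 in B16F10 for Col4a1, and 6130.1, 8877 and 7505 in E0771 and 1123, 906 and 2046 in B16F10 for Col4a2, with log2 differences of 2.85 and 2.54 (adjusted p = 7.96e-07 and 5.33e-05). Fbln2, fibulin-2, had 6828, 10499 and 9340.5 in E0771 and 1.92, 1.95 and 1.91 in B16F10 (log2 difference 11.55, SE 0.21, adjusted p = 8.42e-09), whereas Fbln1, fibulin-1, had 1.01, 0 and 0 in E0771 and 2978, 2826 and 2402 in B16F10 (a ratio of 8703 between the lines, 95% counting interval 1562 to 343796, adjusted p = 2.11e-08). Each line thus expressed 1 of these fibulins and had at most 1.95 scaled reads of the other. Lama4, a laminin chain of vessels and nerve, had 3043, 3459 and 4460.4 in B16F10 and 1.01, 1.001 and 0.934 in E0771 (a ratio of 3880.3 between the lines, 95% counting interval 1327 to 18819, adjusted p = 8.84e-09). Timp3, an inhibitor of matrix proteases, had 1205, 742 and 1185 in B16F10 and 0, 0 and 1.87 in E0771 (a ratio of 1665 between the lines, 95% counting interval 460.5 to 13752, adjusted p = 2.6e-07). Sparc, a collagen-binding protein abundant in both lines, had 40979, 49870.0 and 82806 in B16F10 and 57341, 55848 and 40616 in E0771 (log2 difference −0.13, 95% interval −0.71 to 0.46, adjusted p = 0.675).

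Integrins, the receptors for that matrix, were called in both directions, among alpha and beta chains. Of 17 tested, 10 were called higher in B16F10 and 5 in E0771, against 36.8% and 33.5% of all genes tested, with a median of −0.48. Members such as Itga9 passed the filter on low values only through 1 line and had to differ. Itga4 and Itga9, alpha chains that bind VCAM1 and other ligands, were nearly restricted to B16F10, with 4245, 4705 and 5428 in B16F10 and 3.02, 4.01 and 5.61 in E0771 for Itga4 and 1915, 2079 and 1447 in B16F10 and 1.01, 1.001 and 0.934 in E0771 for Itga9. The log2 difference of Itga4 was −9.87 (adjusted p = 1.12e-08), while Itga9, with 3 E0771 reads in all, had a ratio of 1922 between the lines, 95% counting interval 657 to 9325, adjusted p = 1.12e-08. Itga3, a laminin receptor of epithelia, had 3031, 3746 and 3692 in E0771 and 0.962, 0 and 11.5 in B16F10 (log2 difference 10.23, SE 0.78, adjusted p = 5.71e-06), and Itga5, the alpha chain of the fibronectin receptor, had 4151, 3921 and 3931 in E0771 and 1964, 1778 and 1627 in B16F10 (log2 difference 1.16, SE 0.09, adjusted p = 6.85e-06). Among beta chains, Itgb5 was higher in B16F10 (−0.48, adjusted p = 0.0148), a call lost without B16F10 replicate 3 (adjusted p = 0.0568). Itgb2 was higher in E0771 (1.84, adjusted p = 0.00267), as was Itgb7, by at least 438-fold. The common beta chain Itgb1 had 29255, 30999 and 35539.7 in B16F10 and 35991, 32853 and 36438 in E0771 (log2 difference 0.14, 95% interval −0.10 to 0.38, adjusted p = 0.256).

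**Figure D3:**
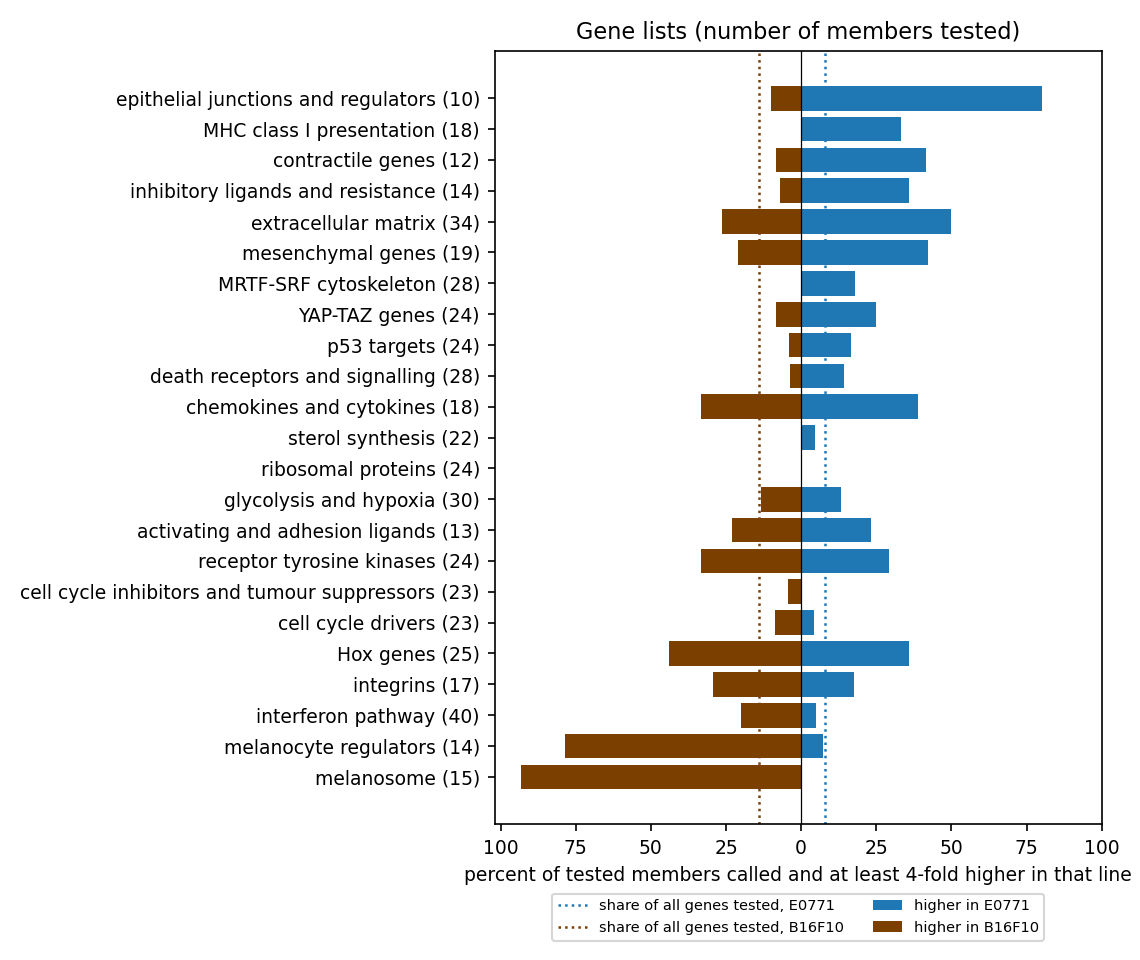
Percent of tested members of each list that were called and at least 4-fold higher in E0771 (blue, to the right) or B16F10 (brown, to the left), for lists with at least 10 tested members (number in brackets). The dotted lines are the same shares over all genes tested, 7.76% and 13.9%, and the melanosome list reaches farthest to the left.

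The targets of the transgenes' pathway were compared without a transgene. MRTFA and MRTFB are coactivators of SRF and are encoded by Mkl1 and Mkl2. Mkl1 (ENSMUSG00000042292.16, chromosome 15, 81012281 to 81190757) had 1124, 1514 and 1408 in E0771 and 1109, 987 and 949.7 in B16F10 (log2 difference 0.40, SE 0.13, adjusted p = 0.0244). Mkl2 (ENSMUSG00000009569.14, chromosome 16, 13256481 to 13417529) had 1235, 1349.9 and 1446 in E0771 and 1289.97, 1333 and 1881 in B16F10 (log2 difference −0.14, 95% interval −0.49 to 0.21, adjusted p = 0.433). Srf had 1684, 3317 and 3370.4 in E0771 and 1315, 1520.01 and 1576 in B16F10 (log2 difference 0.86, SE 0.25, adjusted p = 0.0136), with E0771 replicate 1 close to the B16F10 values. The call of Mkl1 was lost without replicate 2 or 3 of either line (adjusted p of 0.0747 to 0.0793), and that of Srf without B16F10 replicate 1 or E0771 replicate 2 or 3 (0.0537 to 0.0588). Of 28 tested cytoskeletal targets of this pathway, 17 were called higher in E0771 and 5 in B16F10, with a median of 0.62. Only 5 differed by at least 4-fold, all towards E0771. For all genes tested, 33.5% were called higher in E0771 and 36.8% in B16F10, and 7.76% and 13.9% at 4-fold. Replicate 3 was the highest library for 24 of the 28 in B16F10 and 22 in E0771, against 37.7% and 29.9% of all genes tested.

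The members named here differed by less than 4-fold. Actb, beta-actin, had 117347, 134757 and 140825 in E0771 and 82674, 88300.5 and 95887 in B16F10 (log2 difference 0.56, SE 0.12, adjusted p = 0.00362). Flna, filamin A, had 64918, 76684 and 89065 in E0771 and 27559, 28195 and 38597 in B16F10 (log2 difference 1.30, SE 0.17, adjusted p = 0.000146), and Cfl1, cofilin, which severs filaments, had 59966, 55344 and 50812 in E0771 and 26425, 27604 and 26477 in B16F10 (log2 difference 1.04, SE 0.10, adjusted p = 1.72e-05). Towards B16F10, Tln1, talin, which couples integrins to actin, had 21438, 21395 and 27899 in B16F10 and 8569.8, 11283 and 11790.5 in E0771 (log2 difference −1.16, SE 0.15, adjusted p = 0.000161) and Csrp1 had 12928, 14492 and 21741 in B16F10 and 5959, 5918 and 8835 in E0771 (log2 difference −1.24, SE 0.22, adjusted p = 0.001). Tpm1, a tropomyosin, had 28458, 28157 and 29085 in B16F10 and 27534, 27414 and 27553 in E0771 (log2 difference −0.05, 95% interval −0.23 to 0.12, adjusted p = 0.547), and its B16F10 values were each above each E0771 value by a small margin.

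Contractile genes were called higher in E0771 in 8 of 12 tested and in B16F10 in 2, with a median of 1.33. The shares of all genes tested were 33.5% and 36.8%. Acta2 (ENSMUSG00000035783.8, chromosome 19, 34241090 to 34255590) had the largest log2 difference of the list (log2 difference 5.60, SE 0.46, adjusted p = 9.17e-06). Tagln had 484, 396 and 268 in E0771 and 55.8, 43.8 and 265 in B16F10 (log2 difference 2.09, SE 0.61, adjusted p = 0.0143), and B16F10 replicate 3 lay close to the lowest E0771 library. Its call was lost without B16F10 replicate 1 or 2 or E0771 replicate 1 (adjusted p of 0.0544 to 0.0651). Mylk, myosin light chain kinase, was the exception in size, with 886, 646 and 1412 in B16F10 and 18.1, 27.04 and 25.2 in E0771 (log2 difference −5.27, SE 0.31, adjusted p = 9.65e-07). In B16F10, replicate 3 was the highest of the 3 libraries for 11 of the 12 tested contractile genes, against 37.7% of all genes tested, and its median excess over replicates 1 and 2 was 1.46 on the log2 scale. Without that library the counts were again 8 and 2. Myl9 had 482, 426 and 2172 in B16F10 and 493, 419.6 and 584 in E0771, with B16F10 replicate 3 far above the other 5 libraries (adjusted p = 0.329). The actin genes share sequence, and the sources used here do not say how the authors' counting treated reads that fit several genes.

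YAP and TAZ, coactivators that respond to cell shape, have targets that overlap with those of MRTF. Of 24 tested genes of that list, 14 were called higher in E0771 and 6 in B16F10, with a median of 0.65. The shares of all genes called these ways were 33.5% and 36.8%. Replicate 3 was the highest library for 20 of the 24 in B16F10 and 15 in E0771, against 37.7% and 29.9% of all genes tested. Yap1 itself had 13513, 12727 and 22134 in E0771 and 7279, 7386 and 6542 in B16F10 (log2 difference 1.15, SE 0.19, adjusted p = 0.000771). Cyr61, a secreted matricellular target, had 5498, 7293 and 9249.8 in E0771 and 1979, 1998 and 3758 in B16F10 (log2 difference 1.55, SE 0.27, adjusted p = 0.00095), and Myof, myoferlin, had 13618, 13228 and 14339 in E0771 and 2429, 2249 and 4174 in B16F10 (log2 difference 2.27, SE 0.21, adjusted p = 1.75e-05). Axl led the list by reads (log2 difference 4.25, SE 0.29, adjusted p = 2.73e-06). Dlc1, a GTPase activating protein, was lower in E0771, with 632, 811 and 836 in E0771 and 3453, 3742 and 4009 in B16F10 (log2 difference −2.30, SE 0.13, adjusted p = 6.62e-07), as was the phosphatase Ptpn14 (−1.24, adjusted p = 5.81e-05).

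The medians of MHC class I presentation genes and of interferon pathway genes had opposite signs. Of 18 tested presentation genes, 12 were called higher in E0771, 6 of them by at least 4-fold, and 1 was called higher in B16F10, with a median of 1.46. Of 40 tested interferon genes, 6 were called higher in E0771 and 22 in B16F10, 8 of these by at least 4-fold, with a median of −1.30. For all genes tested, 33.5% were called higher in E0771 and 36.8% in B16F10, and 7.76% and 13.9% at 4-fold. Replicate 3 was the highest library for 31 of the 40 interferon genes in B16F10 (77.5%, against 37.7% of all genes tested) and for 30 of the 40 in E0771 (75.0%, against 29.9%). Without replicate 3 of both lines the interferon counts were 7 and 24, and the presentation counts were 14 and 0.

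Among presentation genes, H2-D1, a classical class I heavy chain, had 7892, 8952 and 18067 in E0771 and 1806, 1567 and 2908 in B16F10 (log2 difference 2.43, SE 0.33, adjusted p = 0.000201). Tapbp, tapasin, which loads peptides, had 1079, 1272 and 1956 in E0771 and 519, 473 and 735 in B16F10 (log2 difference 1.30, SE 0.24, adjusted p = 0.00138). Erap1, the peptidase that trims them, had 1635, 1488 and 1850.2 in E0771 and 493, 468 and 674 in B16F10 (log2 difference 1.62, SE 0.16, adjusted p = 2.72e-05). None of these 3 overlapped between lines, and for H2-D1 and Tapbp replicate 3 was the highest library within each line. The proteasome activators Psme1 and Psme2 were also higher in E0771 (0.75 and 1.18, adjusted p = 0.00118 and 0.000254). Tap2 and Psmb8, a peptide transporter chain and an immunoproteasome subunit singled out after their values were seen, had 704, 956 and 1278 in E0771 and 48.1, 30.2 and 140.3 in B16F10 for Tap2 and 350.4, 312 and 1125 in E0771 and 1.92, 0 and 18.1 in B16F10 for Psmb8, with log2 differences of 3.99 and 7.03 (adjusted p = 0.000133 and 0.000251). Psmb10, another immunoproteasome subunit, was the member called higher in B16F10, with 489.6, 492 and 718 in B16F10 and 329, 419.6 and 363 in E0771 (log2 difference −0.59, SE 0.19, adjusted p = 0.0193). Its call was lost, which leaves none of the list higher in B16F10, without B16F10 replicate 3, E0771 replicate 1 or E0771 replicate 3 (adjusted p of 0.0536 to 0.0601). B2m, the light chain of every class I molecule, also named after its values were seen, had 14498, 10019 and 27218 in E0771 and 6811, 6267 and 13969 in B16F10 (adjusted p = 0.0687), and was called higher in E0771 without B16F10 replicate 3 (log2 difference 1.28, adjusted p = 0.0254) or E0771 replicate 2 (1.24, adjusted p = 0.0271). The general chaperone Canx had a log2 difference of −0.18 (adjusted p = 0.11). Class I heavy chain genes resemble each other, so their reads are uncertain where counting could split them.

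In the interferon list, Ifit2, an antiviral protein that binds RNA, had 3056, 3439 and 2975 in B16F10 and 934, 891 and 1045 in E0771 (log2 difference −1.72, SE 0.10, adjusted p = 1.01e-06). Ddx58, the RNA sensor RIG-I, had 1430.4, 924 and 3597 in B16F10 and 417, 310.4 and 1398 in E0771 (log2 difference −1.57, SE 0.62, adjusted p = 0.0493) and overlapped, since E0771 replicate 3 stood near B16F10 replicate 1. Ifi27 had 1521, 1173 and 4568 in B16F10 and 598, 406 and 1202 in E0771 (log2 difference −1.60, SE 0.53, adjusted p = 0.0256), also with overlap. Their calls were lost without B16F10 replicate 3 or E0771 replicate 1 or 2, and that of Ddx58 also without B16F10 replicate 1 (adjusted p of 0.0966 to 0.192 for Ddx58 and 0.0765 to 0.0951 for Ifi27). Ifnar1, a chain of the type I interferon receptor, had 1929, 2037 and 2192 in B16F10 and 1296, 1179 and 1233 in E0771 (log2 difference −0.73, SE 0.09, adjusted p = 0.00012), and Tmem173, the adaptor STING, had 1614, 1616 and 1583 in B16F10 and 1353, 1093 and 1237 in E0771 (log2 difference −0.39, SE 0.10, adjusted p = 0.00834). In the other direction were the kinase Jak1, with 8499, 8441 and 9218 in E0771 and 5008, 5096 and 5699 in B16F10 (log2 difference 0.73, SE 0.08, adjusted p = 7.32e-05), the interferon gamma receptor chain Ifngr1 (0.44, adjusted p = 0.011) and the inhibitor Socs1, with 76.5, 81.1 and 90.6 in E0771 and 10.6, 8.76 and 23.9 in B16F10 (log2 difference 2.57, SE 0.36, adjusted p = 0.000269). Ifit3 and Gbp2, singled out after their values were seen, had the largest log2 differences towards B16F10 in the list, with 537, 468 and 682 in B16F10 and 23.2, 13.02 and 27.1 in E0771 for Ifit3 and 828, 691 and 1709 in B16F10 and 29.2, 25.04 and 87.8 in E0771 for Gbp2, and log2 differences of −4.72 and −4.59 (adjusted p = 1.67e-06 and 5.36e-05). Bst2, tetherin, had 1176, 1083 and 3181 in B16F10 and 1789, 2109 and 3623 in E0771 (adjusted p = 0.238), with overlapping groups, and was called higher in E0771 without B16F10 replicate 3 (log2 difference 1.08, adjusted p = 0.0157).

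The same counts were taken in the libraries with a transgene. In the MRTFB libraries, where 32.4% of all genes tested were called higher in E0771 and 36.7% in B16F10, 7 of 39 tested interferon genes were higher in E0771 and 14 in B16F10. In the MRTFA libraries, where those shares were 34.7% and 35.1%, the counts were 8 and 9 of 41. For the presentation list the counts were 13 and 1 of 18 in the MRTFB libraries and 13 and 2 of 18 in the MRTFA libraries. Whether these counts differ from those in the controls was not tested.

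**Figure D4:**
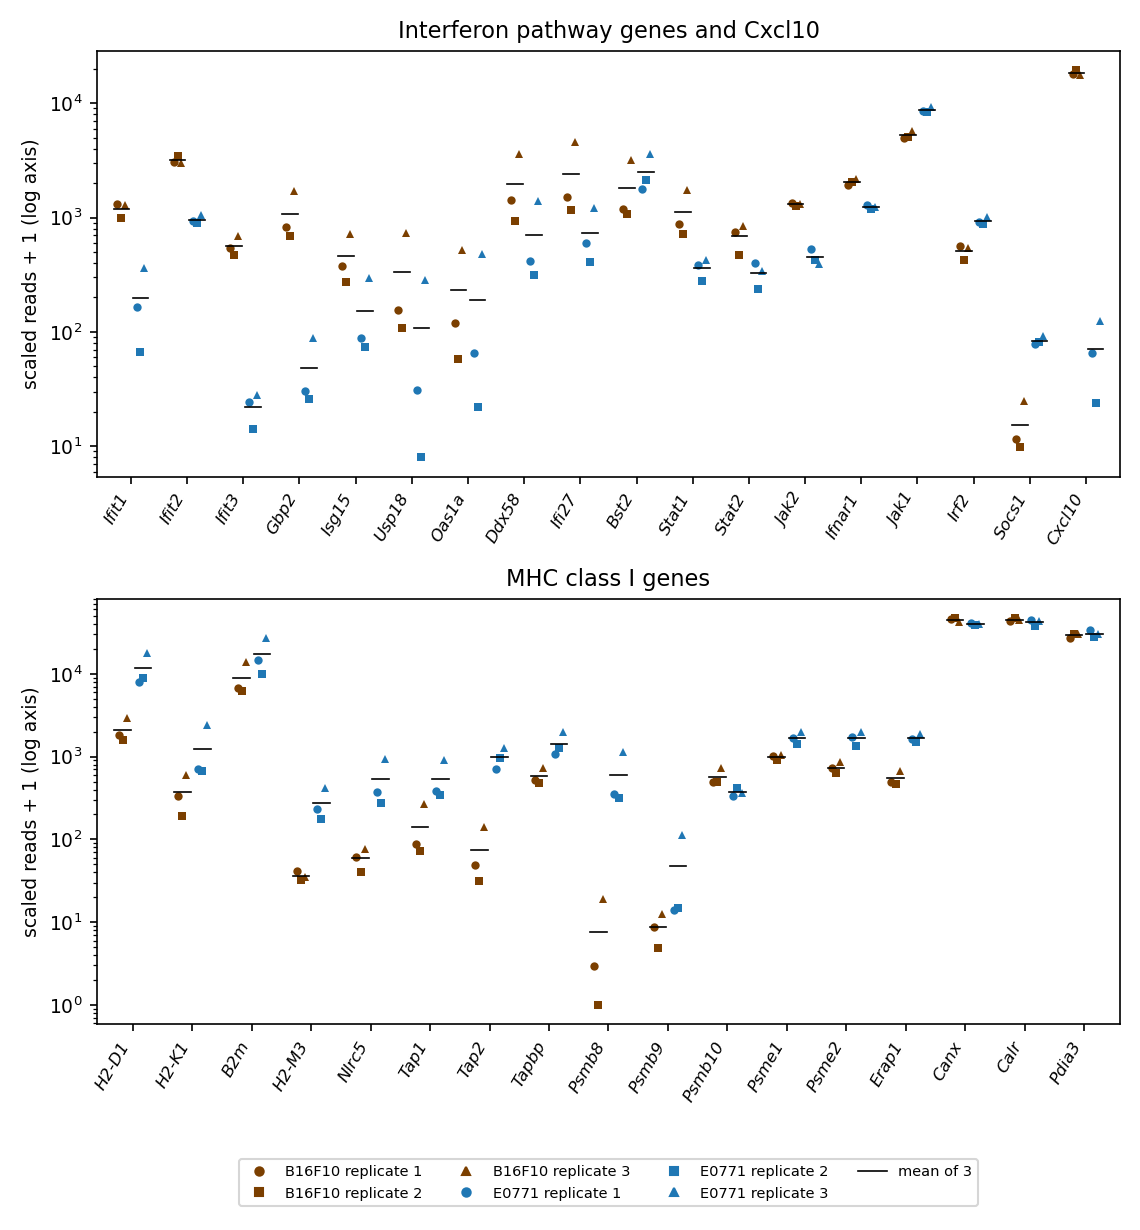
Scaled reads + 1 on a log axis for interferon pathway genes with Cxcl10 (upper panel) and MHC class I genes (lower panel), by library (circle, square and triangle for replicates 1, 2 and 3) with the mean of 3, brown for B16F10 and blue for E0771. Replicate 3 is the top symbol for most interferon genes in both lines, and Cxcl10 is at or above 17519.8 in every B16F10 library.

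Secreted immune signals differed by large factors in both directions. Of 18 tested chemokines and cytokines, 10 were called higher in E0771 and 7 in B16F10, 7 and 6 of them by at least 4-fold, with a median of 1.04. The shares of all genes tested were 33.5% and 36.8%, and 7.76% and 13.9% at 4-fold. Members such as Ccl2 passed the filter on low values only through 1 line and had to differ. Cxcl10 (ENSMUSG00000034855.13, chromosome 5, 92346638 to 92348889), a chemokine for activated T cells that interferon induces, had 17971, 19487 and 17519.8 in B16F10 and 64.4, 23.03 and 123 in E0771 (log2 difference −8.30, SE 0.49, adjusted p = 1.09e-06). Its B16F10 values were close together, and replicate 3 was the lowest of them. Ccl5, a second T cell chemokine, had 203, 186 and 651 in B16F10 and 65.4, 36.1 and 134 in E0771 (log2 difference −2.08, SE 0.58, adjusted p = 0.0114), and the lymphatic growth factor Vegfc had 525, 458 and 529.7 in B16F10 and 12.1, 10.01 and 10.3 in E0771 (log2 difference −5.42, SE 0.20, adjusted p = 7.62e-08). Tslp, a cytokine that acts on dendritic cells, was also higher in B16F10 (−4.02, adjusted p = 6.18e-05). Higher in E0771 were the following members. Csf1, the macrophage colony-stimulating factor, had 5999, 5397 and 6366 in E0771 and 699, 522 and 823 in B16F10 (log2 difference 3.14, SE 0.16, adjusted p = 4.44e-07), and Ccl2, a monocyte chemokine, had 599, 427 and 505 in E0771 and 0, 0 and 4.77 in B16F10 (log2 difference 8.14, SE 0.64, adjusted p = 6.44e-06). Kitl, the ligand of KIT, had 2096, 1877 and 1835 in E0771 and 272, 249 and 323 in B16F10 (log2 difference 2.78, SE 0.13, adjusted p = 2.66e-07), and Vegfa, the vascular growth factor, had 2803, 3584 and 3373 in E0771 and 1367, 1589 and 1055 in B16F10 (log2 difference 1.29, SE 0.16, adjusted p = 0.000115).

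Surface ligands that immune cells read were also unequal. Of 13 tested activating and adhesion ligands, 7 were called higher in E0771 and 3 in B16F10, against 33.5% and 36.8% of all genes tested. Members such as Cd40 and Tnfsf9 passed the filter on low values only through 1 line and had to differ. Cadm1, a cell adhesion molecule recognised by the receptor CRTAM, had 3564, 3255 and 5209.6 in B16F10 and 3.02, 1.001 and 0.934 in E0771 (log2 difference −10.62, SE 0.33, adjusted p = 3.31e-08), and Tnfsf9, the costimulatory ligand 4-1BBL, had 356, 301 and 231 in B16F10 and 0, 0 and 0 in E0771, at least 314-fold higher in B16F10. Raet1d and Raet1e, ligands of the activating receptor NKG2D, were higher in E0771 by 1.16 and 1.24 (adjusted p = 0.000264 and 0.000377), although these paralogs may share reads. Cd40 had 176, 146 and 243 in E0771 and 0, 0 and 0 in B16F10, at least 189-fold higher in E0771. All 14 tested inhibitory and resistance genes were called, 11 higher in E0771 and 3 in B16F10, against 33.5% and 36.8% of all genes tested. Cd274, the checkpoint ligand PD-L1, had 248, 222 and 334 in B16F10 and 68.5, 61.1 and 272 in E0771 (log2 difference −1.33, SE 0.52, adjusted p = 0.0477), with E0771 replicate 3 above B16F10 replicates 1 and 2. Its call was lost when any control library other than E0771 replicate 3 was left out (adjusted p of 0.0786 to 0.158) and with edgeR or DESeq2 (0.1 and 0.2). Serpinb9b, a granzyme inhibitor, had 11383, 7807 and 9042 in E0771 and 21.2, 36.03 and 158 in B16F10 (log2 difference 7.52, SE 0.61, adjusted p = 8.57e-06), and Cd47, the signal against phagocytosis, had 1351, 1306 and 1210.1 in E0771 and 815, 867 and 1101 in B16F10 (log2 difference 0.49, SE 0.13, adjusted p = 0.00973). Nt5e, the adenosine-producing enzyme CD73, singled out after its values were seen, had 1419, 1246 and 1304 in E0771 and 0, 0 and 0 in B16F10, at least 1320-fold higher in E0771.

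Cell death genes were on in both lines with shifts of less than 4-fold in most. Of 28 tested, 12 were called higher in E0771 and 10 in B16F10, 4 and 1 of them by at least 4-fold, with a median of 0.18. Among all genes tested, 33.5% and 36.8% were called these ways. The initiator caspases Casp8 and Casp9 were lower in E0771 (−0.42 and −0.78, adjusted p = 0.00879 and 0.000248). Xiap, a caspase inhibitor, had 3438, 3681 and 3339 in B16F10 and 1063, 1194 and 1266 in E0771 (log2 difference −1.57, SE 0.10, adjusted p = 1.26e-06), and Apaf1, the scaffold of the apoptosome, had 2743, 2784 and 3331 in B16F10 and 973, 841 and 1099 in E0771 (log2 difference −1.61, SE 0.13, adjusted p = 6.74e-06). Mlkl, the effector of necroptosis, had 4688, 3790.4 and 5023 in E0771 and 2297, 2154 and 2469 in B16F10 (log2 difference 0.96, SE 0.12, adjusted p = 0.00011). Ripk3, the kinase that acts on MLKL, was singled out after its values were seen. It had 1121, 975 and 844 in E0771 and 0.962, 1.95 and 1.91 in B16F10 (log2 difference 8.57, SE 0.26, adjusted p = 2.71e-08), so it was close to absent from B16F10.

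Most receptor tyrosine kinases called differed by at least 4-fold. Of 24 tested, 11 were called higher in E0771 and 10 in B16F10, 7 and 8 of them by at least 4-fold. Among all genes tested the shares were 33.5% and 36.8%, and 7.76% and 13.9% at 4-fold. Members such as Egfr passed the filter on low values only through 1 line and had to differ. The counts therefore describe which genes were on and do not measure how often members differ. Of the 3 TAM receptors, which clear dying cells, Axl was higher in E0771 (4.25), Mertk had 4484, 4144 and 4751 in B16F10 and 18.1, 21.03 and 57.9 in E0771 (log2 difference −7.25, SE 0.38, adjusted p = 5.08e-07), and Tyro3 was higher in B16F10 by less (−0.49, adjusted p = 0.00349). Epha2 had 4624, 7443 and 7352 in E0771 and 47.1, 37.98 and 145 in B16F10 (log2 difference 6.61, SE 0.45, adjusted p = 2.81e-06), and Fgfr1 had 3325, 3899.5 and 3947 in E0771 and 197, 173 and 144 in B16F10 (log2 difference 4.44, SE 0.14, adjusted p = 3.62e-08), whereas Fgfr3 had 453, 321 and 205 in B16F10 and 49.3, 39.1 and 63.5 in E0771 (log2 difference −2.62, SE 0.32, adjusted p = 0.000106). Egfr, singled out after its values were seen, had 433, 308 and 532 in E0771 and 0.962, 0 and 0 in B16F10 (a ratio of 1279 between the lines, 95% counting interval 229 to 50540.0, adjusted p = 1.52e-07). The insulin receptor Insr differed by 0.50 (adjusted p = 0.00085).

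Negative regulators of growth were mostly lower in E0771, by less than 4-fold. Of 23 tested cell cycle inhibitors and tumour suppressors, 15 were called higher in B16F10 and 2 in E0771, only Cdh1 by at least 4-fold, with a median of −0.59. The shares of all genes called these ways were 36.8% and 33.5%. Cdkn1a, the p53-induced inhibitor p21, had 4461, 3728 and 7151 in B16F10 and 1932, 2239 and 2586 in E0771 (log2 difference −1.14, SE 0.22, adjusted p = 0.0019). Brca1 had 5484, 4782 and 4736 in B16F10 and 1934, 2029 and 2169.7 in E0771 (log2 difference −1.29, SE 0.09, adjusted p = 3.32e-06), and Apc, which restrains Wnt signalling, had 5179, 5532 and 6976 in B16F10 and 2375, 2939 and 3284 in E0771 (log2 difference −1.04, SE 0.15, adjusted p = 0.000282). Mtap, an enzyme of methionine salvage, had 15886, 17727 and 20299 in B16F10 and 9275, 7624 and 8184 in E0771 (log2 difference −1.10, SE 0.11, adjusted p = 3.95e-05). Trp53, which encodes p53, was higher in E0771, with 7768, 8011 and 8721 in E0771 and 5473, 5169 and 5571 in B16F10 (log2 difference 0.59, SE 0.08, adjusted p = 0.000182).

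Drivers of the cycle were mixed, with 10 of 23 tested called higher in B16F10 and 8 in E0771 and a median of 0.07. The shares of all genes tested were 36.8% and 33.5%. Mki67, which encodes the proliferation antigen Ki-67, had 14905, 15069 and 20152 in B16F10 and 4003, 3717 and 3909 in E0771 (log2 difference −2.09, SE 0.12, adjusted p = 1e-06), whereas Top2a, another gene of cycling cells, had 24347, 23753 and 21154 in B16F10 and 26517, 22547 and 25527 in E0771 (adjusted p = 0.365). Mcm2 and Pcna, of the replication machinery, were lower in E0771 (−1.17 and −0.83, adjusted p = 1.82e-05 and 8.59e-05) and Mcm5, of the same helicase as Mcm2, was higher (0.40, adjusted p = 0.0174), a call lost without B16F10 replicate 3 or E0771 replicate 2 or 3 (0.0568 to 0.0606). Myc had 12351, 16838 and 13044 in E0771 and 5973, 4745 and 5756 in B16F10 (log2 difference 1.35, SE 0.14, adjusted p = 3.41e-05). The cycle kinases differed in opposite directions, with Cdk6 at 6372, 4991 and 4968 in E0771 and 520.4, 573 and 734 in B16F10 (log2 difference 3.16, SE 0.15, adjusted p = 3.16e-07) and Cdk2, singled out after its values were seen, at 14622, 13944 and 14648 in B16F10 and 2008, 1769.5 and 1932 in E0771 (log2 difference −2.92, SE 0.08, adjusted p = 1.76e-08). The annotated ends of Cdk2 (chromosome 10, 128697939 to 128705031, minus strand) and Pmel (from 128704195, plus strand) overlap, and without known strand use their reads in the overlap cannot be told apart.

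Of 24 tested p53 targets, 9 were called higher in B16F10 and 7 in E0771, with a median of −0.20. These counts were near the shares of all genes tested, 36.8% and 33.5%. Mdm2, the inhibitor of p53, had 5694, 5426 and 7369 in B16F10 and 2662, 2565 and 2862 in E0771 (log2 difference −1.18, SE 0.12, adjusted p = 3.72e-05), and Ccng1, cyclin G1, had 8885, 9577 and 15034 in B16F10 and 3319.8, 2889 and 3614 in E0771 (log2 difference −1.73, SE 0.19, adjusted p = 5.48e-05). In the other direction Pmaip1, the death gene NOXA, had 545, 497 and 828 in E0771 and 0, 1.95 and 0 in B16F10 (a ratio of 941 between the lines, 95% counting interval 260.03 to 7772, adjusted p = 4.7e-07), and Plk2 had 4116, 4007 and 4182 in E0771 and 579, 485 and 986 in B16F10 (log2 difference 2.65, SE 0.23, adjusted p = 1.19e-05). Bax had 4338, 4579 and 5867 in B16F10 and 3545, 4641 and 4017 in E0771 (adjusted p = 0.112).

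Of 30 tested glycolytic and hypoxia genes, 13 were called higher in E0771 and 9 in B16F10, 4 of each by at least 4-fold, with a median of 0.12. The shares of all genes tested were 33.5% and 36.8%. Ldha, the lactate-forming subunit of lactate dehydrogenase, had 103103, 119165 and 103393 in E0771 and 59654, 70066 and 50639.8 in B16F10 (log2 difference 0.86, SE 0.14, adjusted p = 0.000675), while Ldhb, the other subunit, had 2.01, 1.001 and 0 in E0771 and 4360.5, 4365 and 3269 in B16F10 (a ratio of 4239 between the lines, 95% counting interval 1450.2 to 20559, adjusted p = 5.36e-08). Slc16a3, the lactate exporter MCT4, differed by 4.64 (adjusted p = 7.1e-07), and Hif1a, the hypoxia-inducible factor, had 12813, 13758 and 14684 in E0771 and 7604, 7968 and 7512 in B16F10 (log2 difference 0.84, SE 0.08, adjusted p = 2.48e-05). Eno1 and Aldoa, both glycolytic enzymes, were lower in E0771, with log2 differences of −0.59 and −0.57 (adjusted p = 0.00334 and 0.00455). Gapdh had 107479, 115607 and 99159.7 in B16F10 and 80123, 111864 and 102224 in E0771 (log2 difference −0.14, 95% interval −0.48 to 0.20, adjusted p = 0.416).

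Of 22 tested sterol synthesis genes, 11 were called higher in B16F10 and 3 in E0771, with a median of −0.44. The shares of all genes tested were 36.8% and 33.5%. Insig1, which holds back sterol synthesis when sterols are plentiful, had 3815, 5454 and 5417 in B16F10 and 1330.1, 1808 and 1302 in E0771 (log2 difference −1.72, SE 0.17, adjusted p = 3.33e-05), and the groups did not overlap. Hmgcs1, an early enzyme of the pathway, had 5351, 5126 and 5655 in B16F10 and 3649, 3197 and 2350.1 in E0771 (log2 difference −0.83, SE 0.15, adjusted p = 0.00115). In E0771, replicate 3 was the highest library for 1 of the 22 genes, against 29.9% of all genes tested, and without it the counts were 10 and 3. Of 24 tested ribosomal protein genes, 20 were called higher in E0771 and none in B16F10, none by 4-fold, with a median of 0.56. For all genes tested, 33.5% were called higher in E0771 and 36.8% in B16F10. Rps2 had 66771, 66984 and 63954 in E0771 and 34259, 37218 and 32651 in B16F10 (log2 difference 0.93, SE 0.09, adjusted p = 3.32e-05) and Rpl4 had 102394, 87488 and 87734 in E0771 and 53985, 55873 and 54891 in B16F10 (log2 difference 0.75, SE 0.11, adjusted p = 0.000274). These genes have many processed pseudogenes that may share their reads. In the MRTFA libraries 12 of the 24 were called higher in E0771, against 34.7% of all genes tested there.

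Hox genes, which record position along the body axis, differed by large factors. Of 25 tested, 13 were called higher in B16F10 and 10 in E0771, 11 and 9 of them by at least 4-fold, and the median size of the difference was 5.35. Over all genes tested the shares were 36.8% and 33.5%, and 13.9% and 7.76% at 4-fold. All 8 tested Hoxa genes were called higher in B16F10. Members such as Hoxa11 passed the filter on low values only through B16F10 and had to differ, so this describes which genes were on. Hoxa10 had 1761, 1755 and 1689 in B16F10 and 313, 275 and 287 in E0771 (log2 difference −2.57, SE 0.11, adjusted p = 1.33e-07), and Hoxa11 had 655, 854 and 576 in B16F10 and 0, 0 and 0 in E0771, at least 736-fold higher in B16F10. In the Hoxd cluster the lines used different members. Hoxd13 had 959, 867 and 399.9 in B16F10 and 0, 0 and 0 in E0771, at least 786-fold higher in B16F10. Hoxd9, which neighbours Hoxd10, had 667, 693 and 543 in E0771 and 0, 0.974 and 0 in B16F10 (a ratio of 1893 between the lines, 95% counting interval 339 to 74806, adjusted p = 6.49e-08). Hoxd8 and Hoxd10 were also higher in E0771, with a log2 difference of 6.44 for Hoxd8 (adjusted p = 6.87e-08) and, for Hoxd10, a ratio of 1561 between the lines, 95% counting interval 279.8 to 61707, adjusted p = 6.92e-08. Hoxc10 had 1442, 1261 and 1199.8 in E0771 and 0, 0 and 0.954 in B16F10 (a ratio of 3889 between the lines, 95% counting interval 698 to 153630.0, adjusted p = 3.18e-08), and Hoxb13 had 119.8, 211 and 218 in E0771 and 0, 1.95 and 0 in B16F10 (a ratio of 275 between the lines, 95% counting interval 75.9 to 2279, adjusted p = 2.56e-06). All 6 tested Hoxc genes were called higher in E0771, with the same limit for members such as Hoxc10 that passed the filter only through E0771. Hoxb3 had a log2 difference of 0.40 (adjusted p = 0.259).

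Markers of other cells were checked in both lines. Of 15 immune cell markers in the list, 4 were in the table and 3 were tested, and all 3 were higher in E0771. A marker that passed the filter on low values only through E0771 had to differ. Their summed level was 0.853 to 2.504 CPM (reads scaled to library size) in the B16F10 libraries and 6.07 to 11.5 in the E0771 libraries. Lyz2, lysozyme, had 139.96, 97.1 and 183 in E0771 and 14.4, 2.92 and 46.8 in B16F10 (log2 difference 3.26, SE 0.78, adjusted p = 0.00534), and Csf1r, which defines macrophages, had at most 9.06 scaled reads in any control library. For 10 endothelial and fibroblast markers in the table the summed level was 58.3 to 107 CPM in B16F10 and 153 to 251 in E0771, with Col3a1 (1919, 3377 and 2391 in E0771 and 4.81, 0.974 and 4.77 in B16F10) on the E0771 side and Vwf (763, 917 and 687 in B16F10 and 5.03, 2.003 and 8.41 in E0771) on the B16F10 side. The defining markers Pecam1, Cdh5 and Fap had at most 17.1 scaled reads in any library. Xist, the RNA of X inactivation, had at most 3.89. The part of other cells in the differences was not tested.

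The differences were not spread evenly over chromosomes. Over 12110 protein coding genes tested on the autosomes and X, the median log2 difference was −0.04, and the medians of 18 of the 20 chromosomes lay between −0.15 and 0.26. Chromosome 4 had −0.32 and chromosome 6 had −0.63. Of the 596 chromosome 6 genes, 63.1% (376) were called higher in B16F10 and 17.1% (102) higher in E0771, against 37.9% and 34.7% over all chromosomes. Among the 352 chromosome 6 genes with a mean level in the upper part of all genes, split at the median, the median difference was −0.44, and among chromosome 6 genes that were not called at 4-fold it was −0.41. Over the 9 pairs of an E0771 and a B16F10 library the chromosome 6 median ran from −0.74 to −0.55. In libraries the control comparison did not use, it was −0.66 for the MRTFB groups and −0.66 for the MRTFA groups. DNA copy number was not measured.

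In windows of 50 neighbouring protein coding genes, all 11 windows of chromosome 6 had a median below 0, from −2.30 to −0.29, against 125 of 233 windows (53.6%) across the genome. The lowest window, chr6:48602063-56879358, contains Gpnmb and the Hoxa cluster, and 36 of its 50 genes were called higher in B16F10, 26 of them by at least 4-fold. Apart from Gpnmb (−6.40), its genes with the most reads were Hnrnpa2b1 (0.26, adjusted p = 0.0813), the collagen chaperone Fkbp9 (−1.78, adjusted p = 4.18e-07) and the glycine transfer RNA ligase Gars (0.34, adjusted p = 0.0858). The difference of Gars was called without B16F10 replicate 2 (0.47, adjusted p = 0.0358). In the lowest window, Gpnmb and Fkbp9 were called higher in B16F10, and Hnrnpa2b1 was not called. The next lowest window of the genome was also on chromosome 6, at −1.19, followed by 1 on chromosome 4 at −1.17. The highest was on chromosome X, at 0.94 (chrX:73233688-85206141), where 37 of 50 genes were called higher in E0771.

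**Figure D5:**
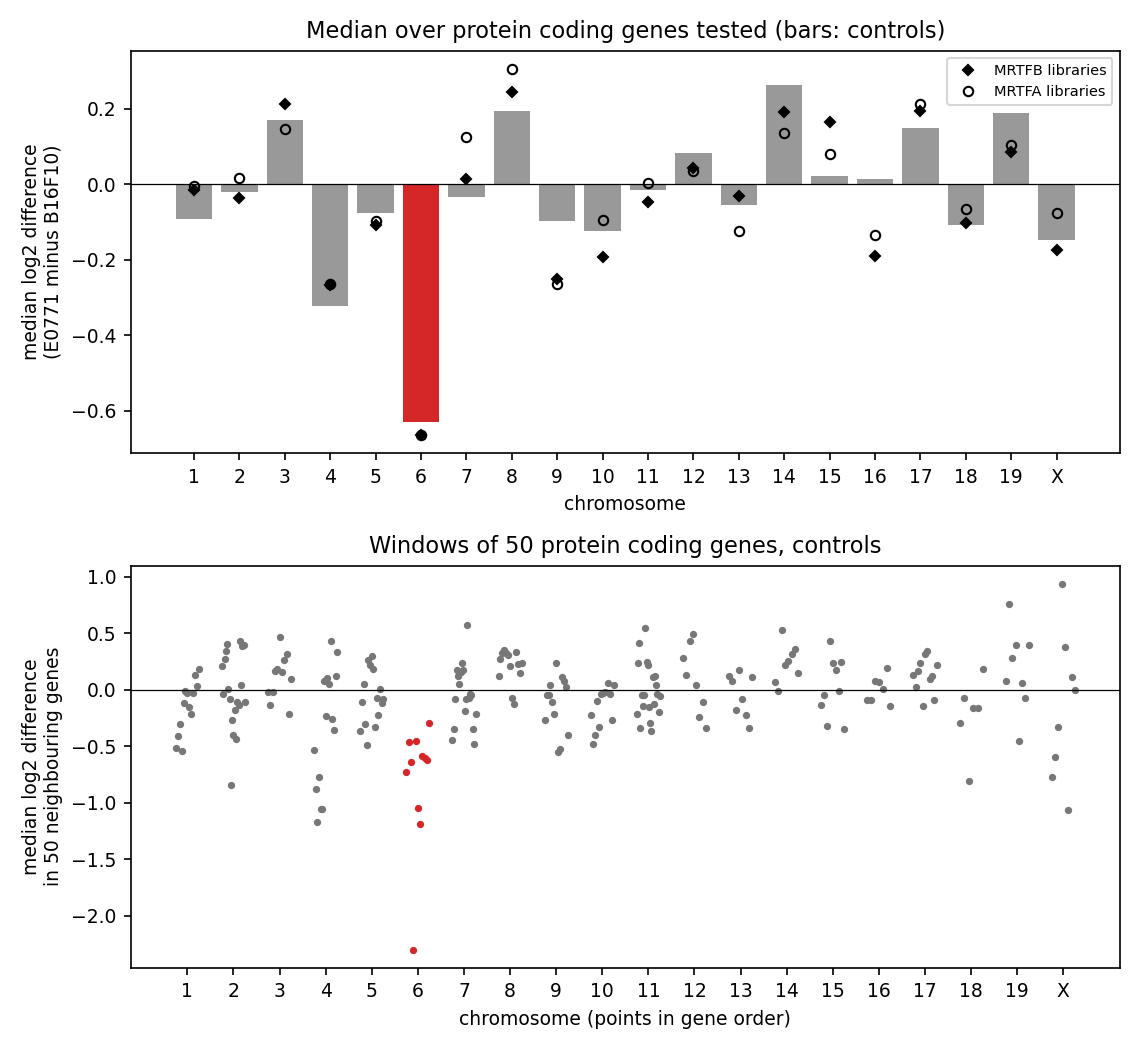
Median log2 difference (E0771 minus B16F10) of protein coding genes per chromosome in the controls (bars, chromosome 6 in red), MRTFB libraries (diamonds) and MRTFA libraries (open circles), and below it the medians of windows of 50 neighbouring genes. Chromosome 6 is lowest, at −0.63, and all 11 of its windows lie below 0.

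Genes that were on in 1 line and nearly silent in the other were counted in both directions. Of 6225 genes with a mean of at least 1000 scaled reads in B16F10, 240 (3.86%) had at most 30 reads in all over the 3 E0771 libraries, and 26 of those had none. Of 5932 such genes in E0771, 70 (1.18%) had at most 30 reads in B16F10, and 5 had none. Chromosome 6 held 25 of the 240 and 1 of the 70. For scale, it held 596 of the 12110 protein coding genes tested. Among the 6055 of these with a mean level at or above the median, it held 352.

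The line differences were examined again in libraries that did not enter the control comparison. Of the 1060 genes called at least 4-fold higher in E0771, 1031 could be tested in the MRTFB libraries, and 1031 had the same direction and 1021 were called the same way. Of the 1894 called at least 4-fold higher in B16F10, 1815 could be tested there, 1814 had the same direction and 1796 were called. In the MRTFA libraries, 1006 of 1006 and 1805 of 1845 had the same direction, and 996 and 1734 were called. For the markers, the log2 difference in the MRTFB and MRTFA libraries was −12.42 and −12.16 for Tyrp1, −12.03 and −11.64 for Pmel, −12.01 and −11.53 for Sox10, and 12.17 and 10.60 for Krt8. None of these 8 values differed from the control value in a test of the difference itself, in which the adjusted p was 0.156 or more. Some differences did reverse, among them that of Fgfr3, which was called at least 4-fold higher in B16F10 in the controls. Mmp14 and Csrp1, higher in B16F10 in the controls, were called higher in E0771 in the MRTFA libraries (log2 differences of 1.35 and 1.58, adjusted p = 8.51e-06 and 0.00011), as was Fgfr3 (1.94, adjusted p = 4.43e-05). Jup was called higher in E0771 in both the MRTFB and the MRTFA libraries (2.20 and 3.998, adjusted p = 2.19e-05 and 2.92e-07).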

How the data were processed

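RNA sequencing of 18 libraries was deposited as 1 table of 18909 genes. Per the submitters' processing notes, cutadapt 1.6, STAR 2.5.0a, HTSeq 0.5.3 and DESeq were used with the mm10 build. The annotation release, strandedness and counting mode are not stated in the sources read. The values deposited by the authors are a signal, that is reads divided by a size factor of the library. Every deposited signal value was a whole multiple of 1 step per library within 0.001 reads, so whole reads were recovered. The limma fits used the deposited signal, except under TMM and upper-quartile scaling, which used the recovered reads. Recovered reads also served for depth, edgeR, DESeq2, RPKM and CPM. Ratios of reads with their counting intervals, lower bounds and all totals of reads per line rest on them too.

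The 3 E0771 and 3 B16F10 empty vector libraries were fitted with limma 3.58.1 (R 4.3.3, trend option) on log2(signal + 1), over the 13658 genes that reached 10 in 3 or more libraries. P-values were adjusted by Benjamini-Hochberg over all of them, with calls at 0.05. The fit was tested on simulated data. Levels per length used GENCODE M21 exon lengths (18827 of 18909 genes matched). Intervals and lower bounds (against 3 reads over the group) cover 95% or counting error only.

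Genes named are the markers, Mkl1, Mkl2 and Srf, the 12 largest differences each way among called, non-overlapping genes with a mean of at least 50, the 12 of highest mean each way among genes with a log2 difference of at least 4, and in each list up to 5 members called each way and up to 3 not called, by highest mean, or any member of a list of at most 15. Genes of a window are named by highest mean. The members and lists were chosen with earlier results of these data known. Alternatives were pseudocounts of 0.5 and 10, no filter or a minimum of 50, TMM and upper-quartile scaling, edgeR 4.0.16, DESeq2 1.42.0, all 18 libraries, a replicate block, leaving out each library, and, added after seeing the data, leaving out replicate 3 of both lines. The MRTFA and MRTFB libraries were fitted in the same way. Some genes that this rule takes in are not reported here.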

Additional observations from a re-analysis of the deposited data

How the results depend on the processing

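The line difference kept its size under every alternative in which the control libraries were refitted, with 8305 (minimum of 50) to 10996 (no filter) genes called and 8733 to 9295 when 1 library was left out. The side with more calls changed with the scaling, since 4926 genes were higher in E0771 and 4743 in B16F10 after upper-quartile scaling, which moved the median of all genes to 0.03. Of the 2954 genes called at least 4-fold, 2916 remained so under that scaling, 2927 with DESeq2, 2932 with edgeR and 2878 without replicate 3 of both lines. Fewer remained with a pseudocount of 10 (2363) and with a minimum of 50 (2161), where fewer genes were tested. The replicate block gave 9672 calls. Deviations of log2 values from the mean of the own line were correlated across genes between E0771 and B16F10 libraries. Same-numbered libraries gave 0.152, 0.0852 and 0.190, each best with its own number. The deviations sum to 0 within each line, so the pairings are not independent of each other. This is a hint from the data and not from the design, so the numbers were not taken as pairs.

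The number of epithelial genes higher in E0771 was 5 with a minimum of 50. The number higher in B16F10 was 0 with that minimum and in the MRTFB libraries, 2 with DESeq2 and with the replicate block, and 1 to 2 when 1 library was left out. The number of MHC class I genes higher in B16F10 was 2 with no filter and in the MRTFA libraries, 0 without replicate 3 of both lines, and 0 to 1 when 1 library was left out. The number of interferon genes higher in B16F10 was 14 in the MRTFB and 9 in the MRTFA libraries. The chromosome 6 median was −0.56 after upper-quartile scaling. The causes were not tested.

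Among 201 named genes and 3812 alternative values, 3663 kept direction and side of the threshold, 91 lost a call, 29 gained one and 29 changed sign. In the MRTFA libraries the log2 difference was 1.58 for Csrp1, 1.94 for Fgfr3, 1.499 for Foxa1, 0.085 for Gapdh, −0.18 for Hnrnpa2b1, −0.26 for Itgb2, 3.998 for Jup, −0.51 for Krt14, −0.81 for Met, 1.35 for Mmp14, 2.40 for Myl9, 0.16 for Psmb10, 0.068 for Tln1, −0.35 for Top2a, 1.67 for Tpm1 and −0.32 for Vim. In the MRTFB libraries it was 0.012 for Csrp1, 2.20 for Jup, −0.35 for Met, 0.20 for Mkl2, 0.057 for Myl9 and 0.0070 for Tmem173. Tpm1 was at 0.014 after upper-quartile scaling, and without replicate 3 of both lines Myl9 was at 0.0052 and Sparc at 0.32. When 1 control library was left out, Mkl2 ran from −0.24 to 0.032, Myl9 from −1.05 to 0.12 and Sparc from −0.34 to 0.16. At 31036305 or more reads per library, genes with under 10 scaled reads in both lines were not compared.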
